A study of Rattus norvegicus with 6 samples.

Results

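Xenobiotic sensors are transcription factors that bind foreign chemicals or their breakdown products, or that respond to the oxidative stress these cause, and switch on genes for detoxification and transport. The 10 genes described here are the NRF2 gene Nfe2l2 and its inhibitor Keap1, the aryl hydrocarbon receptor Ahr with its partner Arnt and its repressor Ahrr, the pregnane X receptor Nr1i2 (PXR), the constitutive androstane receptor Nr1i3 (CAR), Ppara (PPAR alpha), Rxra (RXR alpha) and the bile acid receptor Nr1h4 (FXR). They are a named list, and all their probes on the array were taken by matching RefSeq transcripts to symbols. This gave 18 probes of 61563, and 10 of the 15281 genes named on the array.

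The samples were renal cortex of Sprague-Dawley rats, all male, which were 5 weeks old when bought and were kept on a basal diet. The control group was 3 animals given corn oil, the vehicle, for 4 weeks, and the BBMP group was 3 animals that received the brominated diol 2,2-bis(bromomethyl)-1,3-propanediol over 4 weeks, at 1000 mg/kg/day. Total RNA of each animal was read on 1 one-colour Agilent array. The comparison asks whether the compound altered the transcript level of each sensor.

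Values are relative signals, meaning the processed signal of a probe divided by the 75th percentile of its own array. A relative signal of 1 therefore equals that percentile, and signals of different probes are not compared with each other because probes bind with different strength. That percentile was higher in the BBMP group (1244 to 1259) than in the control group (942.7 to 949.7). All control arrays were on slide 1 and all BBMP arrays on slide 2, scanned separately, so the effects of the compound, the slide and the scan cannot be told apart. Within the slides, control 1 and 2 sat in row 2, and control 3 and all 3 BBMP arrays in row 1. A probe or gene is called where the adjusted p of limma, corrected by the Benjamini-Hochberg method over all 42657 tested probes, was under 0.05. Probes were tested where every array of a group, control or BBMP, read them well above background. Proximal tubule markers were read on every array: Slc34a1, the phosphate transporter that defines these cells, had relative signals between 337.2 and 361.6. None of the 14 proximal tubule markers was called, although 4 had an unadjusted p under 0.05. In a tissue extract, fewer cells of a type and less RNA per cell cannot be told apart.

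In resting cells KEAP1 holds NRF2 in the cytoplasm and feeds it to a ubiquitin ligase. Reactive chemicals modify KEAP1, NRF2 then escapes degradation, pairs with a small MAF protein and binds antioxidant response elements. Liganded AHR leaves its HSP90 chaperone complex, pairs with ARNT and binds xenobiotic response elements, while AHRR competes for ARNT. PXR, CAR, PPAR alpha and FXR bind DNA together with RXR. Much of NRF2 control lies in protein stability and much of the receptors' control in ligand binding, which transcript levels do not measure. PPAR alpha is a regulator of fatty acid oxidation in the proximal tubule.

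The promoters of Arnt, Nfe2l2 and Ahrr are shown because Arnt was the gene called, Nfe2l2 and Ahrr shared a pattern across the arrays, and each holds a core element of these pathways. The sequences are from RefSeq on the GRCr8 build, from 250 bases before to 50 after the start that its promoter table uses, and capitals mark the elements. For Arnt and Ahrr this start is the outer end of the gene, while for Nfe2l2 it lies inside the annotated gene, downstream of its outermost start. The antioxidant response element core was searched as TGACNNNGC and the xenobiotic response element core as GCGTG, each on both strands. No base of the printed promoters lay in both elements.
Nfe2l2 (chr3:81028950-81029249, minus strand): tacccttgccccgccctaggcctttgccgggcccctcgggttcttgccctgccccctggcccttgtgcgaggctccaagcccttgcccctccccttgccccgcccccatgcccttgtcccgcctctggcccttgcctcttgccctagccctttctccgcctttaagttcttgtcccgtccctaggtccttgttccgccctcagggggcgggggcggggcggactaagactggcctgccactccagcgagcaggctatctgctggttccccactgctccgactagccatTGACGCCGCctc
Arnt (chr2:185686453-185686752, plus strand): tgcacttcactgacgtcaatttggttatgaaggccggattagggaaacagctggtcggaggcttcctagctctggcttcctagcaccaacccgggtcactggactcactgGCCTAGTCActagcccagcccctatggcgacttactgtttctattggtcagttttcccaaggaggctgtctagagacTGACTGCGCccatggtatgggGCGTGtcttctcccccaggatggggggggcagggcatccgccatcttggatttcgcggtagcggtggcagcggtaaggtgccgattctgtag
Ahrr (chr1:30821969-30822268, plus strand): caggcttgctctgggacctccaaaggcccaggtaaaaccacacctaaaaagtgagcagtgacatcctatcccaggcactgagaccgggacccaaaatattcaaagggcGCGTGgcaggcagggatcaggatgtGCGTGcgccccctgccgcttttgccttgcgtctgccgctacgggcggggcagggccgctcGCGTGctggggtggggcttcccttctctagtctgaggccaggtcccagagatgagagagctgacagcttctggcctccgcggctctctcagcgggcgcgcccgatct
Positions are counted from that start, with 1 as its first base and negative numbers before it. The Nfe2l2 promoter held 1 antioxidant core at position 39. The Arnt promoter held 2 of them, at -140 and -63, and a xenobiotic core at -42. The Ahrr promoter held 3 xenobiotic cores, at -142, -117 and -57. Promoters were in the RefSeq table for 9 of the 10 genes. The antioxidant core stood in 2 of these 9 and in 12.1% of all 33469 promoters of that table. The xenobiotic core stood in 4 of the 9, those of Ahrr, Arnt, Ppara and Keap1, and in 29.7% of all promoters. A match describes the letters in the window only.

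Of the 10 genes, each represented by its brightest tested probe, 1 was called: Arnt, higher in BBMP. None was called lower. Among all 12077 named genes tested the same way, 16.9% were called, 8.86% higher and 8% lower. Of the 15 tested probes of these genes 1 was called, against 17.8% of all tested probes. The split of those calls depended on the processing, and 58.1% of called probes were higher here. That share was 49.7% with normexp background correction and quantile normalization, and 49.6% with quantile normalization alone. It was 46.8% with cyclic loess and 36.1% with median scaling. With no filter on dim probes, which keeps the scaling and changes the probes tested, it was 46.4%. The groups did not overlap for 3 of the 10 genes, Arnt and Rxra with BBMP above and Nfe2l2 with BBMP below. That held for 44.3% of all named genes, 23.6% with BBMP above and 20.7% with BBMP below. The median log2 difference was 0.06 over the 10 genes and 0.03 over all named genes. For 9 of the 10 genes the brightest probe was above background on all 6 arrays, and the exception was Nr1i3. The plot of relative signals by animal shows each gene's 6 values.

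**Figure D1:**
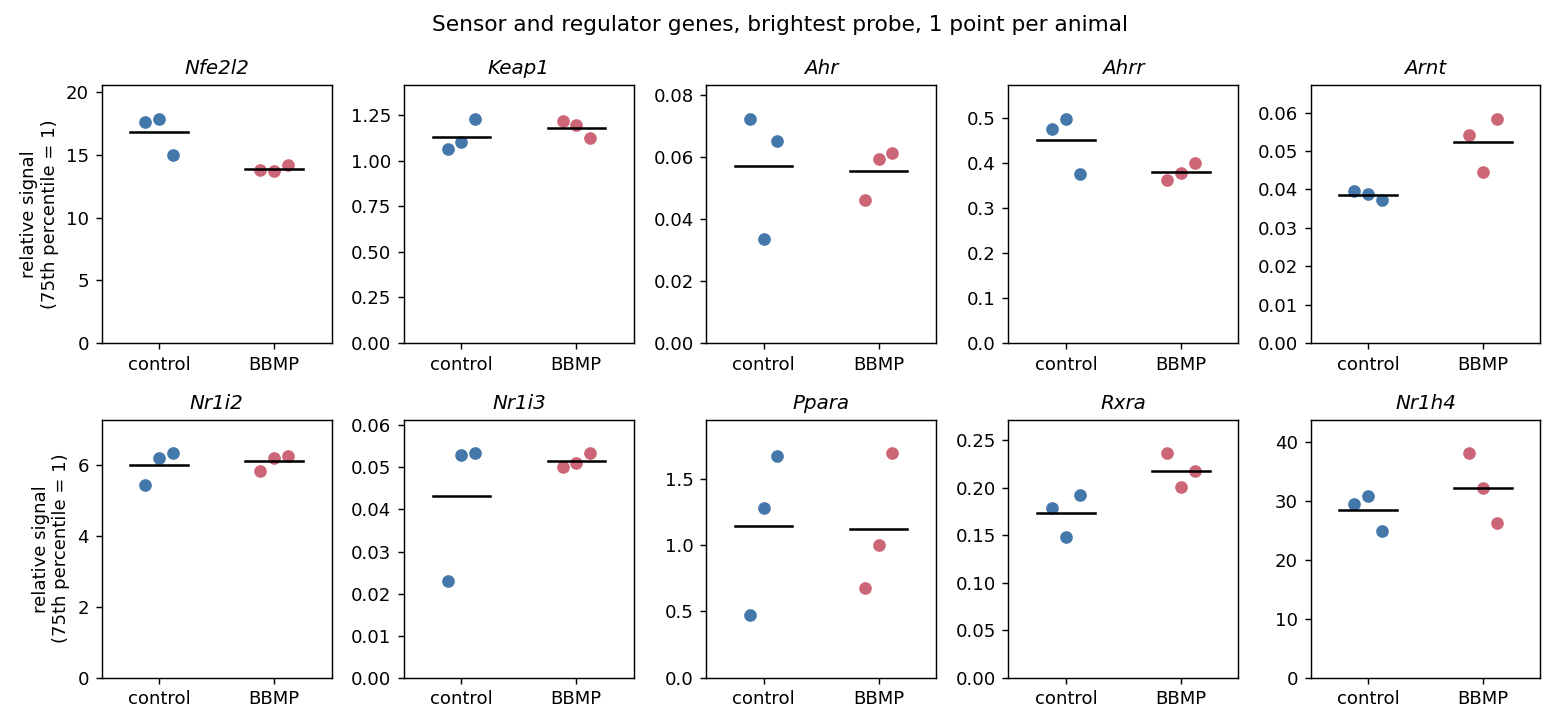
Relative signal (75th percentile of the array = 1, linear axes from 0) of the brightest tested probe of each of the 10 genes, 1 point per animal, with control and BBMP side by side. The Arnt, Rxra and Nfe2l2 points of the 2 groups do not overlap, while the Ppara points spread from 0.476 to 1.69 over both groups.

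Nfe2l2 (GRCr8 chr3:81001529-81031165), which encodes NRF2, had relative signals of 17.6, 17.9 and 15.0 in control and 13.8, 13.7 and 14.2 in BBMP animals. All 3 BBMP values lay below all 3 control values, and control 3 was the control nearest to them. The log2 signal was 4.07 ± 0.14 in control and 3.80 ± 0.03 in BBMP (SD, n = 3 each). The difference was -0.27 (SE 0.09, 95% interval -0.48 to -0.06), a 1.21-fold lower signal, and it was not called (limma adjusted p = 0.0785). A second probe for Nfe2l2 read 10.5, 10.9 and 8.61 in control and 8.5, 8.5 and 8.68 in BBMP animals. On that probe the groups overlapped, because control 3 fell within the range of the BBMP values. Its difference was -0.22 (SE 0.10, limma adjusted p = 0.181). Over the 6 arrays the log2 signals of the probes had a Pearson r of 0.973, with the same RNA and labelling behind both.

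On both Nfe2l2 probes the low control was the animal whose array shared slide row 1 with the BBMP arrays. Against that control alone the difference of the brighter probe was -0.11, a value with 1 control array behind it, and limma called none of the 42657 probes in that setting, although 9561 had an unadjusted p under 0.05. Without control 3 it was -0.35 and called lower (limma adjusted p = 0.0379). Nfe2l2 was also called lower with median scaling (-0.35, limma adjusted p = 0.0428), with normexp background correction (-0.31, adjusted p = 0.0428) and with moderation that allows a trend and outliers (adjusted p = 0.0407). Before scaling, the processed signal ran from 14130 to 16960 in control and from 17050 to 17890 in BBMP arrays, so the lower reading is on scaled signals. Quantile normalization and cyclic loess also bring the arrays to a common level. With these the difference was -0.28 and -0.27 and was not called (limma adjusted p = 0.0801 and 0.0915).

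The 3 genes whose log2 signal followed Nfe2l2 most closely over the 6 arrays, of 11588 compared, were Exosc9 (Pearson r 0.994), Gpbp1l1 (0.992) and Mfsd1 (0.992). Exosc9, a subunit of the RNA exosome, read 3.17, 3.27 and 2.68 in control and 2.35, 2.40 and 2.42 in BBMP animals. It showed the same low control 3. The ranking describes these arrays only, since 6 points and many genes give high correlations.

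Keap1 (GRCr8 chr8:28044555-28054042), the sensor and inhibitor of NRF2, read 1.07, 1.1 and 1.23 in control and 1.22, 1.20 and 1.13 in BBMP animals. The groups overlapped throughout. The log2 difference was 0.06 (SE 0.08, 95% interval -0.14 to 0.25, limma adjusted p = 0.623). Its pooled SD of 0.09 on the log2 scale was the lowest of the 10 genes.

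Ahr (GRCr8 chr6:57961423-57998901), the receptor for dioxin-like chemicals, was dim, at 0.0724, 0.0336 and 0.0653 in control and 0.0462, 0.0592 and 0.0614 in BBMP animals. Control 2 was the lowest animal and control 1 the highest, with all BBMP values between them. The log2 difference was 0.03 (SE 0.31, 95% interval -0.74 to 0.79, limma adjusted p = 0.958). The width of this interval leaves changes of either sign within it. The genes closest to Ahr over the 6 arrays were Xkr8 (Pearson r 0.988), Sugt1 (0.980) and Tagln (0.979). Each of these also had its lowest value in control 2, and Tagln, a smooth muscle actin-binding protein, read 1.03, 0.832 and 1.04 in control and 0.906, 1.00 and 0.978 in BBMP animals.

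Arnt (GRCr8 chr2:185686703-185745546), the shared partner of AHR and the hypoxia-inducible factors, was the one gene called. It read 0.0396, 0.0389 and 0.0372 in control and 0.0542, 0.0447 and 0.0585 in BBMP animals. The control animals were close together, and BBMP 2 was the nearest to them. The log2 signal was -4.70 ± 0.05 in control and -4.26 ± 0.20 in BBMP (SD, n = 3 each), a rise of 0.44 (SE 0.11, 95% interval 0.16 to 0.71) or 1.35-fold (limma adjusted p = 0.0471). The gene has 1 probe, and it was dim: the lowest signal counted as well above background corresponded to relative signals between 0.0126 and 0.0196 on the 6 arrays.

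The call for Arnt was lost in most alternatives. The difference was 0.09 with normexp (limma adjusted p = 0.403). This setting started from median signals, added an offset of 50, which compresses dim signals, and ended in quantile normalization. Which of these steps lowered the difference was not tested. It was 0.24 with cyclic loess (adjusted p = 0.148), 0.32 with quantile normalization alone (adjusted p = 0.0899) and 0.36 with median scaling (adjusted p = 0.0655). Within slide row 1, where no probe at all was called, the Arnt difference was 0.49. The call was also lost on leaving out any 1 of the 6 arrays.

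Ahrr (GRCr8 chr1:30822219-30917251), the repressor of AHR, read 0.475, 0.498 and 0.375 in control and 0.362, 0.376 and 0.399 in BBMP animals. Control 3 lay within the BBMP range and the other controls above it. The log2 difference was -0.24 (SE 0.12, 95% interval -0.53 to 0.06) and was not called (limma adjusted p = 0.214). Within slide row 1 it was 0.01, and without control 3 it was -0.36 and called lower (limma adjusted p = 0.0469). Nfe2l2 and Ahrr thus shared the arrangement in which both row 2 controls exceeded every row 1 array, as the plot by slide row shows. Whether slide row contributed was not tested beyond these values, since no BBMP array sat in row 2.

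**Figure D2:**
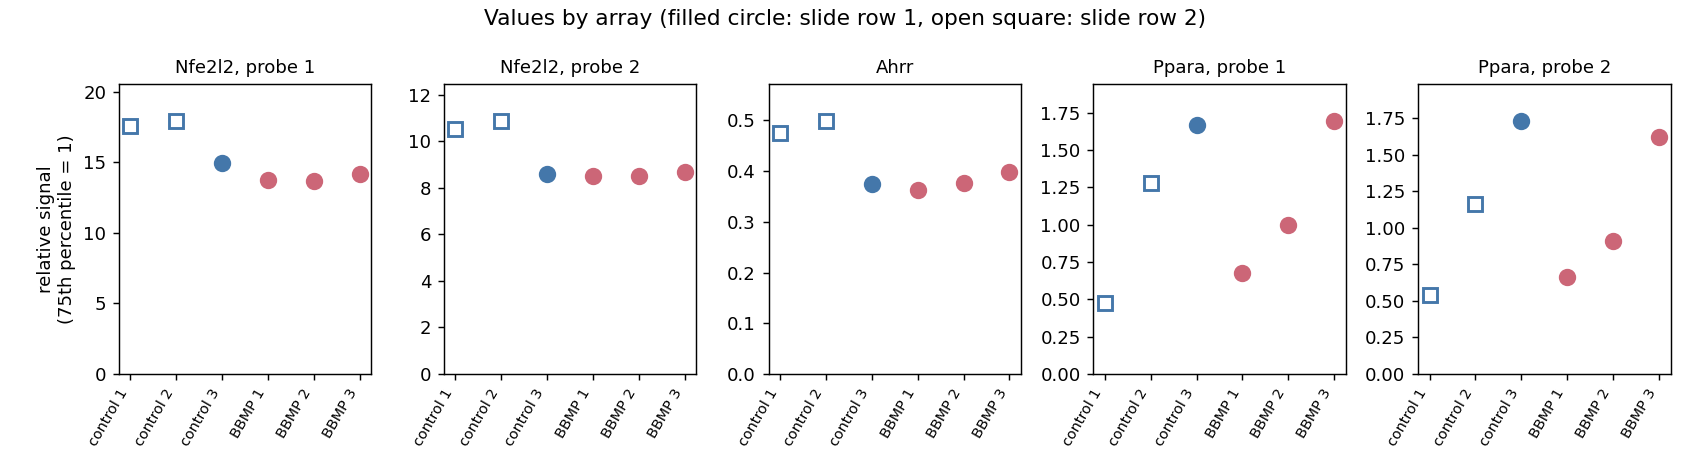
Relative signal (75th percentile of the array = 1, linear axes from 0) on each of the 6 arrays for both Nfe2l2 probes, Ahrr and both Ppara probes, with filled circles for slide row 1 and open squares for row 2. Control 3, the row 1 control, sits nearest to or among the BBMP arrays for Nfe2l2 and Ahrr, while the Ppara values spread within each group and within row 1.

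Nr1i2 (GRCr8 chr11:75965717-76006733), the PXR gene, read 5.44, 6.19 and 6.32 in control and 5.82, 6.20 and 6.25 in BBMP animals on its brighter probe. The ranges lay almost on top of each other. The log2 difference was 0.03 (SE 0.08, 95% interval -0.17 to 0.23, limma adjusted p = 0.826). The other probe read 1.32, 1.62 and 1.74 in control and 1.47, 1.80 and 2.15 in BBMP animals, a difference of 0.21 (SE 0.17, limma adjusted p = 0.428).

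Nr1i3 (GRCr8 chr13:86165327-86170362), the CAR gene, was the one gene of the 10 with probes at background throughout. Of its 4 probes, 3 were at background on all 6 arrays. The remaining probe was above background on 2 of 3 control and all BBMP arrays, at 0.0231, 0.0528 and 0.0534 in control and 0.0501, 0.0511 and 0.0533 in BBMP animals. Control 1, the animal below background, lay apart from the rest, and the other controls read within or just beside the BBMP range. The log2 difference was 0.36 (SE 0.34, 95% interval -0.47 to 1.18, limma adjusted p = 0.483), and it was -0.04 without control 1.

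Ppara (GRCr8 chr7:118712261-118780723) varied among animals more than any other of the 10 genes. Its brighter probe read 0.476, 1.28 and 1.67 in control and 0.677, 1.00 and 1.69 in BBMP animals. Each group had a low, a middle and a high animal, and the highest value was 3.51 times the lowest among controls and 2.50 times among BBMP animals. The second probe read 0.537, 1.16 and 1.73 in control and 0.661, 0.911 and 1.62 in BBMP animals. It put the 6 animals in the same order apart from the highest pair, with a Pearson r of 0.989 to the first. The log2 difference was 0.06 on the first probe (SE 0.56, 95% interval -1.31 to 1.42, limma adjusted p = 0.953) and -0.05 on the second (SE 0.52, adjusted p = 0.957). The pooled SD of the first probe was 0.82 on the log2 scale, larger than in 98.4% of named genes, against a median of 0.12 over all named genes.

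The genes most like Ppara over the 6 arrays, picked after its spread was seen, were Itgad (Pearson r 0.989), Slc35c2 (0.985) and Slc6a11 (0.981). Slc35c2, a nucleotide sugar transporter of the Golgi, was the bright one and read 8.65, 16.4 and 17.0 in control and 11.4, 13.8 and 17.2 in BBMP animals. It was low in the same control and BBMP animals as Ppara.

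Rxra (GRCr8 chr3:31387892-31474415) encodes a partner with which PXR, CAR, PPAR alpha and FXR bind DNA. It read 0.178, 0.148 and 0.193 in control and 0.236, 0.201 and 0.217 in BBMP animals. All BBMP values lay above all controls, with control 3 and BBMP 2 nearly level. The log2 signal was -2.54 ± 0.19 in control and -2.20 ± 0.12 in BBMP (SD, n = 3 each). The difference was 0.34 (SE 0.12, 95% interval 0.04 to 0.63), a 1.26-fold higher signal that was not called (limma adjusted p = 0.101), and no alternative called it.

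Nr1h4 (GRCr8 chr7:25733471-25829440), the FXR gene, had 3 tested probes. The brightest read 29.4, 30.8 and 24.9 in control and 38.0, 32.2 and 26.1 in BBMP animals. Control 3 and BBMP 3 were low within their groups on all 3 probes, and the groups overlapped on each. The log2 differences were 0.17 (SE 0.16, 95% interval -0.22 to 0.56, limma adjusted p = 0.480), -0.02 (SE 0.18, adjusted p = 0.943) and 0.10 (SE 0.15, adjusted p = 0.644). The plot of log2 differences sets the intervals of the 15 tested probes side by side.

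**Figure D3:**
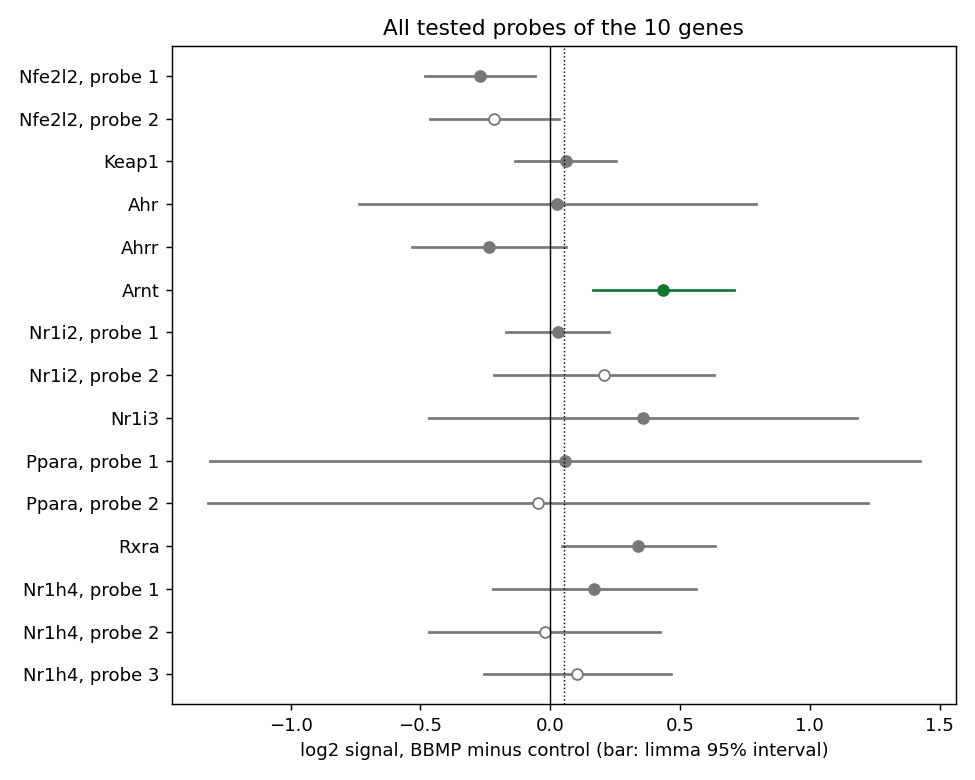
Log2 signal difference, BBMP minus control, with its 95% interval from limma for each of the 15 tested probes of the 10 genes. The intervals of Arnt, Rxra and the brighter Nfe2l2 probe exclude 0 without adjustment, and those of both Ppara probes span more than 1 in either direction.

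Genes that work with these sensors, family members and known targets were read from lists chosen with earlier results of these data known. Over all such lists, 138 distinct genes were tested. Of these, 22 rose and 9 fell, 22.5% in all, against 16.9% of all named genes. No test compares a list with other genes here. Each of these called genes kept its sign in all 21 alternatives. Leaving out BBMP 1 or BBMP 2 ended every limma call among the 138 genes, while 34 and 32 genes with a higher and 10 and 10 with a lower signal then had an unadjusted p under 0.05. The counts by list appear in the plot of partners and targets.

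**Figure D4:**
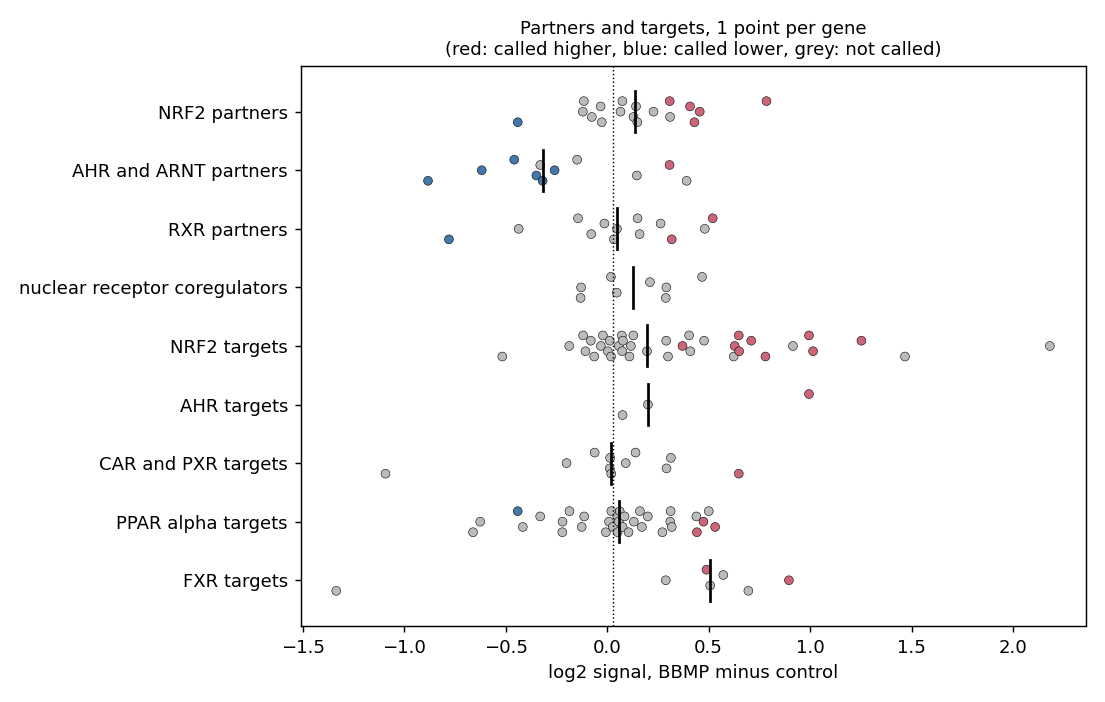
Log2 signal difference, BBMP minus control, of each tested gene in 9 lists of partners and targets, 1 point per gene, with red for called higher, blue for called lower and grey for not called. The black bar is the median of the list and the dotted line the median of all named genes. On the list of AHR and ARNT partners and family members 6 of 11 genes are blue, and 9 of the 37 NRF2 targets are red.

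Of the 18 tested NRF2 partners, 5 rose (27.8%) and 1 fell (5.56%), against 8.86% and 8% of all named genes, with a median log2 difference of 0.14. Amer1, also called WTX and known to bind KEAP1, read 1.83, 2.13 and 1.76 in control and 3.52, 2.68 and 3.71 in BBMP animals, 1.72-fold higher (limma adjusted p = 0.0243). Mafg, a small MAF partner of NRF2, rose 1.37-fold (adjusted p = 0.0148), and Btrc, the beta-TrCP adaptor that marks NRF2 for degradation without KEAP1, rose 1.35-fold (adjusted p = 0.0172). Palb2, which binds KEAP1 and acts in DNA repair, was the one that fell, 1.36-fold (adjusted p = 0.0253). The remaining 2 that rose, named after their values were seen, were Sqstm1 and Syvn1 (limma adjusted p = 0.0222 and 0.0227). Sqstm1 (p62, an autophagy receptor that binds KEAP1) rose 1.33-fold with 4 of its 5 probes called. The ubiquitin ligase Syvn1 rose 1.24-fold with 1 of its 2 probes called. Cul3, the ligase scaffold to which KEAP1 docks NRF2, differed by -0.07 on the log2 scale and was not called (limma adjusted p = 0.383).

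Of the 37 tested NRF2 targets, 9 rose (24.3%) and none fell, against 8.86% and 8% of all named genes, with a median log2 difference of 0.20. Nqo1, a quinone reductase and a standard NRF2 target, read 0.186, 0.136 and 0.218 in control and 0.359, 0.339 and 0.360 in BBMP animals. All BBMP animals lay above all controls, and the signal was 1.99-fold higher (limma adjusted p = 0.0211). Gstp1, a glutathione transferase, rose 2.38-fold, Ephx1, an epoxide hydrolase, 2.02-fold, and Akr7a3, an aldehyde reductase, 1.72-fold. The other 5 that rose, outside the naming rule, included the exporters Abcc4 and Abcc2, the haem-pathway reductase Blvrb and the haem transporter Slc48a1, between 1.29-fold and 1.64-fold. Other standard targets were not called: Hmox1 differed by 0.41 on the log2 scale (limma adjusted p = 0.0634), and the glutathione synthesis genes Gclc and Gclm varied widely within the controls. Gclc read 117, 45.0 and 18.1 in control and 37.1, 84.5 and 70.4 in BBMP animals. Txnrd1 was not called on its brightest probe (-0.08, limma adjusted p = 0.502), although 2 of its 4 probes were called higher. Akr1b8, an aldo-keto reductase picked after its values were seen, had the widest difference of the list, 2.18 on the log2 scale (SE 1.14), and was not called (limma adjusted p = 0.221). It read 5.47, 1.26 and 1.27 in control and 15.2, 28.4 and 1.89 in BBMP animals, so that BBMP 3 lay below control 1.

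The list of AHR and ARNT partners also holds genes counted for their protein family and not as partners, such as Npas2. Of its 11 tested genes, 6 fell (54.5%) and 1 rose (9.09%), against 8% and 8.86% of all named genes. The median log2 difference of the list was -0.32. Hif1a, the hypoxia factor that pairs with ARNT, read 7.62, 8.0 and 7.78 in control and 5.18, 5.05 and 5.03 in BBMP animals. It fell 1.53-fold on its brightest probe (limma adjusted p = 0.0113), and all 3 of its probes were called lower. Npas2, a clock factor of the same protein family as ARNT, was 1.84-fold lower (limma adjusted p = 0.0202), but 1 of its 3 probes was called and another had the opposite sign. The chaperone genes of the unliganded AHR complex were lower too: Ptges3, the p23 cochaperone, fell 1.37-fold (limma adjusted p = 0.0129). Sim1, a factor that pairs with ARNT, fell 1.27-fold with 1 of its 3 probes called (adjusted p = 0.0430). Named after their values were seen, Hsp90aa1 fell 1.25-fold with 5 of 6 probes called, and Hsp90ab1 fell 1.20-fold with 1 of 5 probes called and another of opposite sign. Epas1, the second hypoxia factor, was the one that rose, 1.24-fold (limma adjusted p = 0.0238).

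Of the 7 listed AHR targets 3 were tested, and Nqo1, shared with NRF2, was the one called. Cyp1a1 and Cyp1b1, the classical responders, stayed at background on all 6 arrays, and Cyp1a2 rose above background on 1 control array by 1 of its 2 probes. Ugt1a6, a glucuronosyltransferase, differed by 0.20 on the log2 scale and was not called (limma adjusted p = 0.364).

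Of 19 listed targets of PXR and CAR, 11 were tested, all above background on all 6 arrays. Of these 11, 1 rose (9.09%, against 8.86% of all named genes): Abcc2, an efflux transporter also on the NRF2 list, 1.57-fold (limma adjusted p = 0.0282). The drug-metabolizing Cyp2b1, Cyp3a23-3a1, Cyp3a62 and Cyp3a9 did not rise above background on any of the 6 arrays. Of the tested cytochrome P450 genes of the same families, Cyp2b2 differed by 0.09 and Cyp2b3 by -1.09 on the log2 scale (SE 0.12 and 0.68), and neither was called (limma adjusted p = 0.622 and 0.295). Cyp2b1 and Cyp2b2 are near-identical copies that probes may not separate. Alas1, the first enzyme of haem synthesis, differed by 0.14 on the log2 scale and was not called (limma adjusted p = 0.522).

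Of the 34 tested PPAR alpha targets, 3 rose (8.82%) and 1 fell (2.94%), with a median log2 difference of 0.06. The share that rose was near the 8.86% of all named genes and the share that fell below their 8%, so the count shows nothing particular to these targets. Hadha, of mitochondrial fatty acid oxidation, rose 1.45-fold (limma adjusted p = 0.0135), and Cyp4a1, a fatty acid hydroxylase, rose 1.36-fold (adjusted p = 0.0395). Acaa1a, a peroxisomal thiolase, rose 1.39-fold on 1 of 3 probes (adjusted p = 0.0472). Its near-identical copy Acaa1b was not called on its brightest probe (adjusted p = 0.0585), although 1 of its 3 probes was called higher. Probes may not separate the copies. Decr1, a mitochondrial reductase of unsaturated fatty acids, fell 1.36-fold (adjusted p = 0.0135). Whether these genes followed the level of Ppara across animals was not tested.

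Of the 7 tested FXR targets, 2 rose (28.6%) and none fell, against 8.86% and 8% of all named genes, with a median log2 difference of 0.51. Slc51a, a subunit of the basolateral bile acid exporter, read 4.22, 6.54 and 6.20 in control and 8.30, 12.9 and 10.3 in BBMP animals, 1.86-fold higher on a pair of probes both called (limma adjusted p = 0.0480). The heparan sulfate carrier Sdc1 rose 1.4-fold (adjusted p = 0.0348).

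Among the 13 tested partners of RXR alpha, 2 rose (15.4%) and 1 fell (7.69%), against 8.86% and 8% of all named genes, with a median log2 difference of 0.05. Rara, the retinoic acid receptor alpha, read 2.30, 2.33 and 2.05 in control and 1.29, 1.34 and 1.26 in BBMP animals, 1.72-fold lower (limma adjusted p = 0.0113), with 1 of its 2 probes called. Thra, a thyroid hormone receptor, rose 1.43-fold (adjusted p = 0.0208). Rxrb, the sister gene of Rxra, rose 1.25-fold with both probes called (adjusted p = 0.0385). Of 8 tested nuclear receptor coregulators none was called by limma, and 3 had an unadjusted p under 0.05. Dnajc7, a CAR cochaperone, differed by -0.13 on the log2 scale (limma adjusted p = 0.264).

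Marker lists of the cell types in or near the cortex were read the same way, and each sum is set mostly by the brightest probes of its list. Summed signals of proximal tubule markers ran from 2888 to 2969 in control and from 2857 to 2883 in BBMP animals. Within that list Slc7a13 spread widely, at 61.9, 14.4 and 8.26 in control and 14.2, 42.3 and 30.8 in BBMP animals. Slc22a2 of the list and the NRF2 target Gclc had the same order of animals within each group. Collecting duct principal cell markers had 3 of 8 genes lower (Aqp4, Elf5 and Hsd11b2), 37.5% against 8% of all named genes. Another 3 of the 8 had a positive difference, and the sums were 189.5 to 204.7 in control and 167.4 to 183.7 in BBMP animals. Podocyte markers had 2 of 6 genes higher (Synpo among them), 33.3% against 8.86% of all named genes. Only 3 of the 6 had a positive difference, and the sums overlapped, at 39.35 to 43.41 and 38.04 to 42.66. Adrenal markers had 2 of 5 higher (40%, against 8.86% of all named genes), with Cyp11b1 and Dbh at background. The 2 were Cyp21a1, and Th on 1 of 2 probes, the other of opposite sign. Of the 5 tested adrenal genes 4 had a positive difference. Adrenal sums were 2.86 to 2.99 in control and 3.56 to 3.85 in BBMP animals, mostly from Th, at 2.07 to 2.14 and 2.63 to 2.77. Of the other renal and immune lists, 1 gene each was called, 12.5% to 20% of the list. Cldn10 (thick ascending limb) and Trpv5 (distal tubule, its other probe of opposite sign) were lower. Slc4a9 (intercalated cells), Cdh5 (endothelium) and Csf1r (leukocytes) were higher. Sums in control and BBMP animals were 442.4 to 654.8 and 478.7 to 604.3 for thick ascending limb. Distal tubule sums were 172.4 to 197.8 and 204.1 to 237.7, of which Klk1 alone read 141.7 to 161.8 and 165.8 to 203.7. Of the 5 tested distal tubule genes 3 had a positive difference, and Calb1, not called, was lower like Trpv5. Intercalated cell sums lay mostly lower although Slc4a9 rose, at 142.8 to 176.4 and 131.3 to 144.3. Endothelial sums were 31.3 to 39.6 and 31.4 to 32.7, and leukocyte sums 4.26 to 4.66 and 4.24 to 5.20. No fibroblast or medulla marker was called by limma, with 0 and 1 of them at an unadjusted p under 0.05. Hepatocyte markers, listed because PXR, CAR and FXR are strong in liver, summed to 1.29 to 6.64 in control and 1.08 to 4.53 in BBMP animals, with none called by limma, none at an unadjusted p under 0.05, and Tat at background on every array. The part of these differences in the results above was not tested.

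The size of each sensor's difference under 21 alternatives is drawn in the plot of settings. Nfe2l2, Arnt, Rxra and Nr1h4 kept their sign in all 21. Ahr kept it in 12 and Ppara in 14, whose differences lay near 0. Arnt was called in 5, Nfe2l2 in 4 and Ahrr in 1, and the other 7 genes in none of them.

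**Figure D5:**
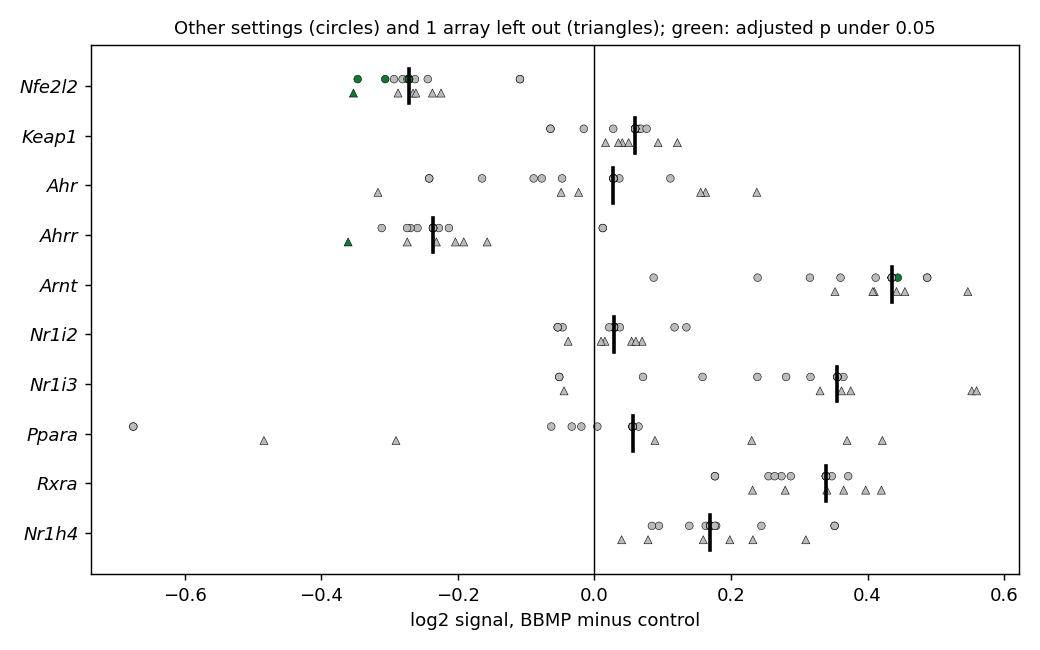
Log2 signal difference, BBMP minus control, of the 10 genes as reported (black bar), under other processing settings (circles) and with 1 array left out (triangles), with green for limma adjusted p under 0.05. The Nfe2l2, Arnt, Rxra and Nr1h4 points stay on one side of 0, while the Ppara points run from -0.68 to 0.42.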

How the data were processed

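Total RNA of renal cortex from 3 control and 3 BBMP rats was labelled with Cy3, per the labels' protocols. Each deposited scanner file gives a linear intensity per probe, background-corrected and detrended by Agilent Feature Extraction 10.7.1.1, per the file headers (10.7 in the submitters' processing notes), with flags scored 0 or 1 for background, saturation and outliers. The authors' deposited table gives 1 ratio per probe and array and served as an alternative. Each of its columns equals another animal's scanner file of the same group over that array's 75th percentile (median column ratio between 0.107 and 0.114), so replicate numbers are uncertain and group membership is not.

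After 84 ERCC spike-in probes and 10 probes with outlier flags were left out, log2 intensity minus the array's 75th percentile was fitted by group (limma 3.58.1, R 4.3.3; lmFit and eBayes without covariates, two-sided). Benjamini-Hochberg adjustment ran over 42657 tested probes, and the number of arrays limits the precision. Genes were named through RefSeq accessions in a GRCr8 table (27452 probes), which also gave coordinates and promoters. The array design is based on rn4, and its coordinates were not used. Per the labels, replicates are biological. The fit was tested on simulated data.

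The 10 genes, the lists and the tests were chosen with earlier results of these data known. The text names all 10 genes, up to 4 genes of each pathway list (called ones by size, otherwise the brightest), the 3 genes most like Nfe2l2 and Ahr, and called or defining cell type markers. Any other gene was named after its values were seen, and some genes are not reported here. Plots were drawn in matplotlib 3.10.9.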

Additional observations from a re-analysis of the deposited data

How the results depend on the processing

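The count of sensors called higher, 1 as reported, was 0 with normexp, quantile normalization, cyclic loess, median scaling, no filter on dim probes, trend and robust moderation, array weights, the replicate block, the slide row block and slide row 1 alone, and 0 on leaving out any array. The count called lower, 0 as reported, was 1 with normexp, median scaling and trend and robust moderation, and 0 to 2 with 1 array left out. Sensor probes called, 1 as reported, were 0 with quantile normalization, cyclic loess, no filter, array weights, both row settings and the replicate block, and 0 to 3 with 1 array left out. Partner and target genes called higher and lower, 22 and 9 as reported, were 0 and 0 with the replicate block and both row settings, 0 to 18 and 0 to 7 with 1 array left out. Calls by limma over all probes, 7594 as reported, were 0 with the replicate block, the slide row block and slide row 1 alone, where 13386, 9711 and 9561 probes had an unadjusted p under 0.05, and 2 to 5534 with 1 array left out. Same-numbered animals had deviations correlated at -0.13, -0.09 and -0.08, and none correlated best with its own number. This gave no sign of a pairing by number, but deviations within 3 arrays a group cannot exclude one. Signs of uncalled differences turned as follows. Ahr was -0.077 with normexp, -0.089 with quantile normalization, -0.16 with cyclic loess, -0.047 with median scaling and -0.24 in both row settings. Ppara was -0.063 with normexp, -0.019 with median scaling, -0.033 with array weights and -0.68 in both row settings. Keap1 was -0.016 with median scaling and -0.064 by row, Nr1i2 -0.046 and -0.054, Ahrr 0.012 by row and Nr1i3 -0.051 by row. With 1 array left out, Ahr ran from -0.32 to 0.24, Ppara from -0.48 to 0.42, Nr1i2 from -0.038 to 0.070 and Nr1i3 from -0.044 to 0.56. The cause of these changes was not tested, and both row settings rest on 1 control array. Nr1i3 gave no value where probes had to be above background on all 6 arrays. Few arrays and dim probes (Ahr, Arnt, Nr1i3) limit what could be detected.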
